A study of Mus musculus with 24 samples.

Results

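The active crypt stem cell genes described here are 10 mouse genes that mark Lgr5-positive crypt base columnar cells or answer to Wnt signalling in the crypt: Lgr5, Olfm4, Ascl2, Smoc2, Axin2, Rnf43, Znrf3, Sox9, Cdca7 and Lrig1. They were taken by name from the 45513 genes in the count files, and all 10 were found. The choice was by name, with no threshold on a measured value. Their RNA was measured in 24 bulk libraries of EpCAM+tdTom+ live epithelial cells, in 4 groups of 6, taken from the small intestine (SI) and the colon of WT and of 9S/T-A mice. Libraries carry the replicate numbers 2 to 7. WT stands for Atoh1(WT)CreERT2 R26RtdTom mice, and 9S/T-A for Atoh1(9S/T-A)CreERT2 R26RtdTom mice, in which serine and threonine sites of ATOH1 that precede a proline were changed to alanine. Every mouse, controls included, carried an inducible CreERT2 behind the Atoh1 coding sequence and the tdTom reporter, and received a single injection of 3 mg tamoxifen. Per the methods of the study, the animals were C57BL/6 males and females aged 8 to 16 weeks, homozygous for the Atoh1 allele and heterozygous for the reporter. Cells were sorted 24 h after injection. The SI tissue was the proximal 15 cm, and its villus-enriched fraction was discarded. The study asked how blocking phosphorylation of ATOH1 alters secretory progenitors, and for these genes the comparisons were genotype within each tissue, tissue within each genotype, and the difference between the genotype effects of the tissues.

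Crypt base columnar cells are the dividing stem cells at the bottom of intestinal crypts, and Wnt signalling keeps them in that state. R-spondins bind LGR receptors, which restrains membrane ubiquitin ligases that would otherwise remove the Wnt receptors, so that beta-catenin can drive target genes through TCF/LEF factors. Several of these targets act as brakes on the same pathway. ATOH1 is a basic helix-loop-helix transcription factor that commits crypt progenitors to secretory fates and binds E-box sequences. The reporter therefore selects cells that expressed Atoh1 around the time of the pulse. The levels below are those of stem cell genes in sorted secretory cells and their progenitors, not in sorted stem cells, and in such bulk samples fewer cells expressing a gene and less RNA per cell cannot be told apart.

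Library totals ranged from 36.0 to 65.8 (in units of 1e6 counts). Marker lists were used to describe the sort, in CPM. These are counts per 1e6 of a library total scaled by TMM factors, a correction for libraries in which a few genes take many reads. They are therefore not shares of all reads. In each group, 7 of 7 epithelial markers averaged at least 1 CPM. Summed goblet cell markers reached 316880 to 511032 CPM in SI and 37512 to 84331 CPM in colon. Absorptive markers summed to 3515 to 7745 CPM in SI and 252 to 425 CPM in colon. Tuft cells were unlabelled at 24 h in the study, and their markers summed to 23.1 to 113 and 11.3 to 43.3 CPM. The source of these reads was not tested. The stromal collagen gene Col3a1 was at 0 in all 24 libraries, and the 10 stromal and endothelial markers together summed to 7.05 to 22.4 CPM. Among 10 leukocyte markers, Lyz2 made up nearly all of the summed level in SI. The other 9 summed to 11.6 to 37.2 CPM in SI and to 0.538 to 2.81 CPM in colon. The 5 libraries farthest from their group means were the 4 numbered 7 and 9S/T-A SI replicate 2, with a root mean square deviation over genes of 0.472 to 0.558 on the log2 scale against 0.295 to 0.42 in the other libraries. Atoh1 itself averaged 92.3 ± 15.5 CPM (SD, n = 6) in WT SI, 75.0 ± 11 in 9S/T-A SI, 103 ± 15.7 in WT colon and 85.9 ± 13.6 in 9S/T-A colon. With plain library totals, without TMM factors, these means were 74.3, 55.9, 133 and 109. Atoh1 counts do not show the substitutions, so they do not check the genotype labels. The series gives 6 mice in total and does not tie libraries to animals. For this assay each genotype group is elsewhere described as n = 6, without saying whether these are mice, so the total may be per genotype. If instead it covers both genotypes, libraries of a group share animals and the p-values are too small.

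Lgr5 (chromosome 10, 115450311 to 115587780, in GRCm38 as are all positions) encodes the R-spondin receptor that defines these stem cells. Levels are again given as CPM scaled by TMM factors. Lgr5 ranged from 15.7 to 27.5 CPM in WT SI (median 20.4), from 14.7 to 27.1 in 9S/T-A SI (18), from 7.86 to 14 in WT colon (10.3) and from 4.25 to 13 in 9S/T-A colon (7.74). On this scale, every SI library lay above every colon library, while the genotypes overlapped in both tissues. The single lowest value, 4.25 CPM, was 9S/T-A colon replicate 3.

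Rnf43 (chromosome 11, 87662722 to 87735539) and Znrf3 (chromosome 11, 5276324 to 5444847) encode the ubiquitin ligases that clear Wnt receptors from the membrane. Rnf43 averaged 63.5 ± 4.67 CPM in WT SI, 57.7 ± 4.69 in 9S/T-A SI, 44.2 ± 4.03 in WT colon and 41.9 ± 5.8 in 9S/T-A colon (SD, n = 6 each). Znrf3 averaged 10.8 ± 1.28, 8.87 ± 0.814, 9.29 ± 1.42 and 9.92 ± 1.01 CPM in the same order. The means of Rnf43 had the same order as those of Lgr5, although 9S/T-A colon reached 51.9 CPM and 9S/T-A SI went down to 49.7, whereas neighbouring groups of Znrf3 overlapped throughout and 9S/T-A SI had the lowest mean.

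Axin2 (chromosome 11, 108920349 to 108950783) encodes a scaffold of the complex that destroys beta-catenin and is a standard readout of Wnt activity. Its means were 36.3 ± 4.35 CPM in WT SI, 33.8 ± 5.12 in 9S/T-A SI, 28.5 ± 3.42 in WT colon and 29.3 ± 4.0 in 9S/T-A colon, and every pair of neighbouring groups overlapped. In 9S/T-A SI, replicate 2 stood apart at 43.5 CPM, with the next library at 34.3. Lrig1 (chromosome 6, 94604529 to 94700158), which restrains EGF receptor signalling, had the opposite tissue order. It ranged from 56.1 to 81.9 CPM in WT SI (median 73.9), from 50.2 to 67.4 in 9S/T-A SI (56.9), from 130 to 144 in WT colon (133) and from 132 to 144 in 9S/T-A colon (137). The colon libraries were all above the SI libraries, and the spread within colon was small beside the distance to SI.

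Ascl2 (chromosome 7, 142966822 to 142969264) encodes a basic helix-loop-helix factor that maintains Lgr5-positive cells, and Sox9 (chromosome 11, 112782224 to 112787760) an HMG-box factor that is a Wnt target and is needed for Paneth cells. Ascl2 averaged 6.22 ± 1.36 CPM in WT SI, 6.43 ± 1.83 in 9S/T-A SI, 4.94 ± 0.868 in WT colon and 5.03 ± 1.15 in 9S/T-A colon, with overlap between all neighbours in that order. Sox9 resembled Lrig1 in its tissue order, with 43.3 to 65.0 CPM across both SI groups and 75.8 to 93.8 CPM across both colon groups.

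Olfm4 (chromosome 14, 80000302 to 80021930), a secreted glycoprotein, and Smoc2 (chromosome 17, 14279506 to 14404790), a secreted matrix protein, are both markers of crypt base columnar cells. Olfm4 ranged from 627 to 959 CPM in WT SI (median 756) and from 471 to 907 in 9S/T-A SI (640). In colon it was between 0.448 and 1.69 CPM in WT and between 0.457 and 0.733 in 9S/T-A, which is 31 to 116 counts a library. Smoc2 ranged from 79.0 to 108 CPM in WT SI (median 91.4), from 50.3 to 88.3 in 9S/T-A SI (67.1), from 26.6 to 38.4 in WT colon (32.9) and from 21.8 to 31.7 in 9S/T-A colon (27.2). Cdca7 (chromosome 2, 72476159 to 72486893) encodes a nuclear zinc-finger protein linked to DNA methylation and cell division. It averaged 49.3 ± 4.58 CPM in WT SI, 40.6 ± 7.83 in 9S/T-A SI, 28.8 ± 1.53 in WT colon and 31.3 ± 3.25 in 9S/T-A colon.

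**Figure D1:**
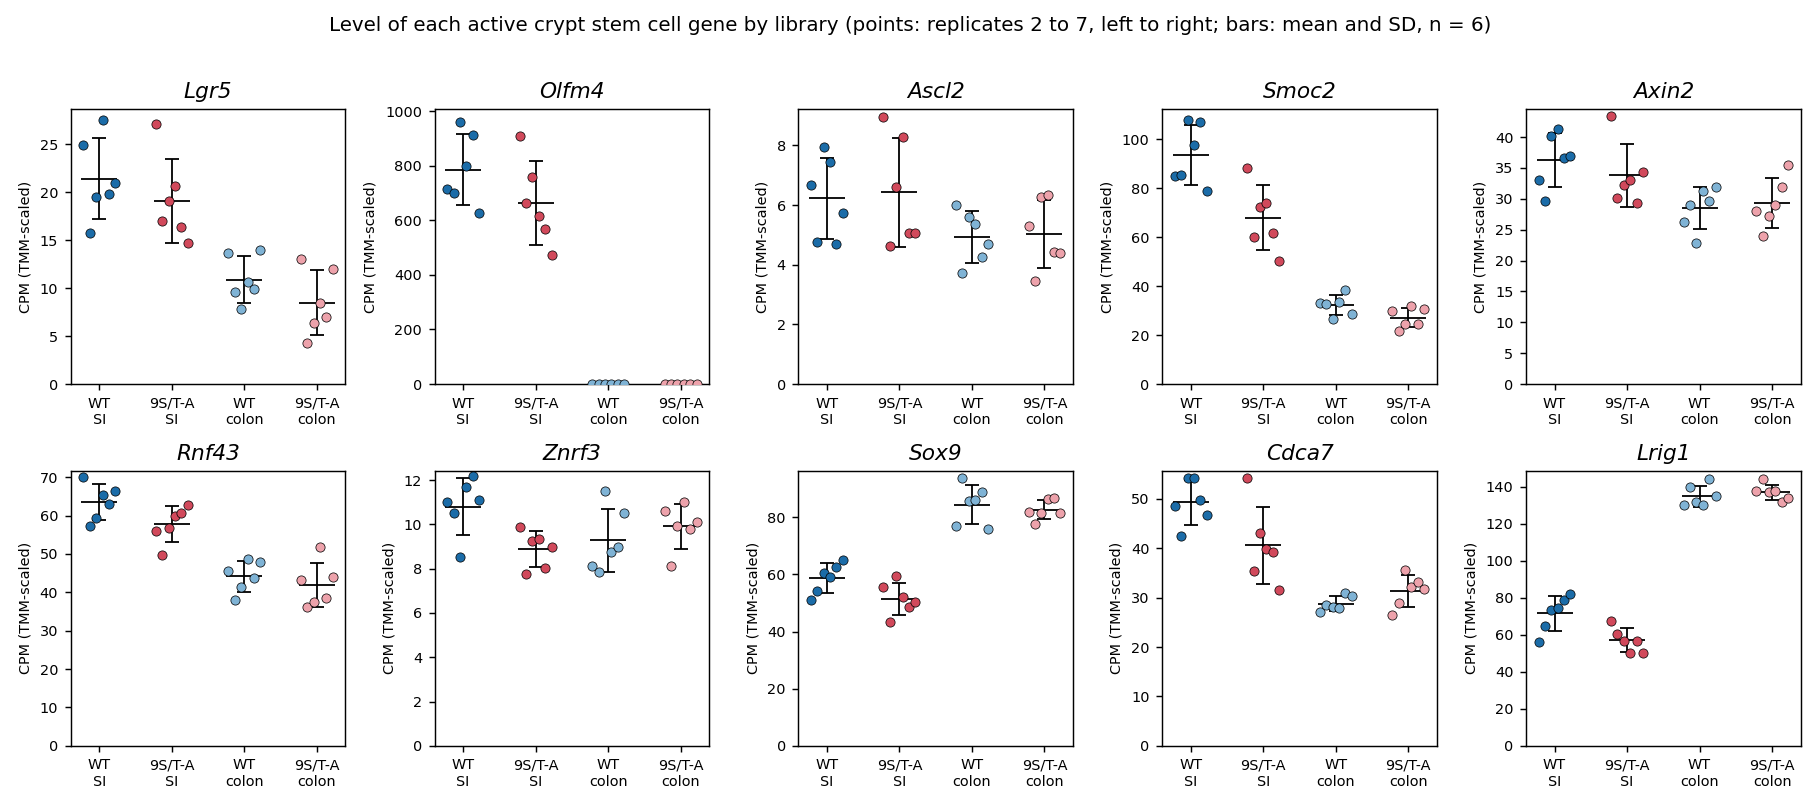
TMM-scaled CPM of the 10 genes (vertical axes, from 0) by tissue and genotype (horizontal axes). Points are libraries, and bars are the mean and SD of 6. Olfm4 lies near 0 in colon, Lrig1 and Sox9 are higher in colon, and the genotypes overlap in every panel.

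Genes were compared with each other only per length, as TPM, which divides counts by gene length before scaling to the library. In WT SI, Olfm4 led with 541 ± 106 TPM, followed by Smoc2 at 37.3 ± 6.14 and then Cdca7, Sox9 and Lrig1 at 17.4, 16.2 and 14.6 TPM, whose SDs overlap. Lgr5 was ninth with 2.35 ± 0.436 TPM and Znrf3 last with 1.55 ± 0.227. The order of the genes was the same in 9S/T-A SI. In WT colon, Lrig1 and Sox9 led with 62.3 ± 6.08 and 52.5 ± 4.02 TPM, Lgr5 was again ninth (2.76 ± 0.748), and Olfm4 came last with 1.33 ± 0.853. TPM is scaled to each library's own total and was not used to compare tissues.

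The windows before 2 of these genes are shown because Olfm4 had the widest tissue difference and Ascl2 encodes a factor of the same helix-loop-helix class as ATOH1. They run from 250 bases before to 50 bases after a RefSeq start (GRCm38.p6), on the gene's strand. Capitals mark E-boxes, the palindromic letters CANNTG. The Olfm4 window is chr14:80000052-80000351 (plus strand) and the Ascl2 window chr7:142969215-142969514 (minus strand).
Olfm4: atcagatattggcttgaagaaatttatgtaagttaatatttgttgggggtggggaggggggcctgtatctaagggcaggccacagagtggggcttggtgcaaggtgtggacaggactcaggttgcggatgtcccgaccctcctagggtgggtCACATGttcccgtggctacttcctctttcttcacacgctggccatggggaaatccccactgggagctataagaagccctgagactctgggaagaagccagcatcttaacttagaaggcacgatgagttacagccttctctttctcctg
Ascl2: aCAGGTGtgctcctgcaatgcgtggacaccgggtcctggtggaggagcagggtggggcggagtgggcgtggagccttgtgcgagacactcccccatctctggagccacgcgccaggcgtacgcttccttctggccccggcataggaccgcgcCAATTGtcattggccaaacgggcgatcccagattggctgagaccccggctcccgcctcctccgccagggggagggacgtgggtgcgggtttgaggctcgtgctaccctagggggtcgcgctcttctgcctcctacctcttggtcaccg
Olfm4 held 1 E-box, CACATG at -98, and Ascl2 held 2, CAGGTG at -249 and CAATTG at -98, each position being that of the first letter relative to the start. Windows were at hand for 6 of the 10 genes (Olfm4, Ascl2, Axin2, Rnf43 with 2 windows, Cdca7 and Lrig1). Rnf43 held 1 E-box, CACTTG at -16, in 1 of its windows. An E-box was present in 3 of these 7 windows and in 72.3% of the 32817 windows of all genes. The TCF/LEF letters CTTTGAA or CTTTGAT, sought on both strands, were in 0 of the 7 windows and in 8.65% of all. The E-box CAGCTG, which is contained in the CANNTG search, was in 0 of the 7 and in 16.3% of all. These counts describe the windows alone.

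Genotype in SI was compared first. Of the 10 genes, 0 were called changed (edgeR quasi-likelihood test, Benjamini-Hochberg adjusted p under 0.05), where 1.94% of the 16236 genes tested were called. DESeq2 called 1 of the 10, Smoc2 (adjusted p = 0.0208), and 4.17% of all genes it tested. The estimates leaned one way: 9 of 10 genes were lower in 9S/T-A, with a median log2 fold change of -0.22 beside 0.00 over all genes tested. Unadjusted p was under 0.05 for 5 of them (Smoc2, Lrig1, Znrf3, Cdca7 and Sox9), and for 2556 of all genes tested. Smoc2 had the largest estimate, -0.47 (SE 0.126, adjusted p = 0.0775). The 6 libraries of 9S/T-A SI were all below the WT mean of 93.5 CPM, yet the groups overlapped, because replicate 2 reached 88.3 CPM. Lrig1 followed with -0.33 (SE 0.0985, adjusted p = 0.116), also lower in 6 of 6 libraries, against a WT mean of 71.6 ± 9.53 CPM and a 9S/T-A mean of 57.0 ± 6.49.

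The 2 ubiquitin ligases were below their WT means in 6 of 6 libraries of 9S/T-A SI as well, with -0.29 for Znrf3 (SE 0.1, adjusted p = 0.174) and -0.14 for Rnf43 (SE 0.0731, adjusted p = 0.375). Cdca7 was at -0.28 (SE 0.113, adjusted p = 0.232), and Sox9 at -0.19 (SE 0.0854, adjusted p = 0.297), each lower in 5 of 6 libraries. The 95% interval of the log2 fold change was wide for the stem cell genes used most often as markers: -0.49 to 0.16 for Lgr5, -0.57 to 0.08 for Olfm4 and -0.36 to 0.45 for Ascl2. Ascl2 was the one gene with a positive estimate, 0.04, which turned to -0.07 with plain library totals. Axin2 was at -0.11 (SE 0.106, adjusted p = 0.673).

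9S/T-A SI replicate 2 was the highest library of its group for 8 of the 10 genes, so leaving it out lowers the group mean of those genes by construction. Without it, 3 of the 10 were called lower, where 3.35% of all genes tested were called: Smoc2 at -0.56 (adjusted p = 0.0186), Cdca7 at -0.39 (0.0362) and Lrig1 at -0.38 (0.0466). Without WT SI replicate 2, which was the lowest library of its group for Lrig1 (56.1 CPM), 1 was called, Lrig1 at -0.39 (0.0373), where 2.17% of all genes were. Of 12 single libraries left out in turn, these 2 were the only ones that changed the count of 0. With both libraries numbered 2 left out, a choice made after seeing the data, the same 3 genes were called, at -0.58 for Smoc2, -0.44 for Lrig1 and -0.39 for Cdca7, where 4.78% of all genes tested were called. With all libraries, 10 of 10 genes were below the WT mean in 3 of the 6 libraries of 9S/T-A SI (replicates 3, 6 and 7), and 5 of 10 in replicate 2. WT SI replicate 3 was below the mean of its own group for 10 of 10.

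**Figure D2:**
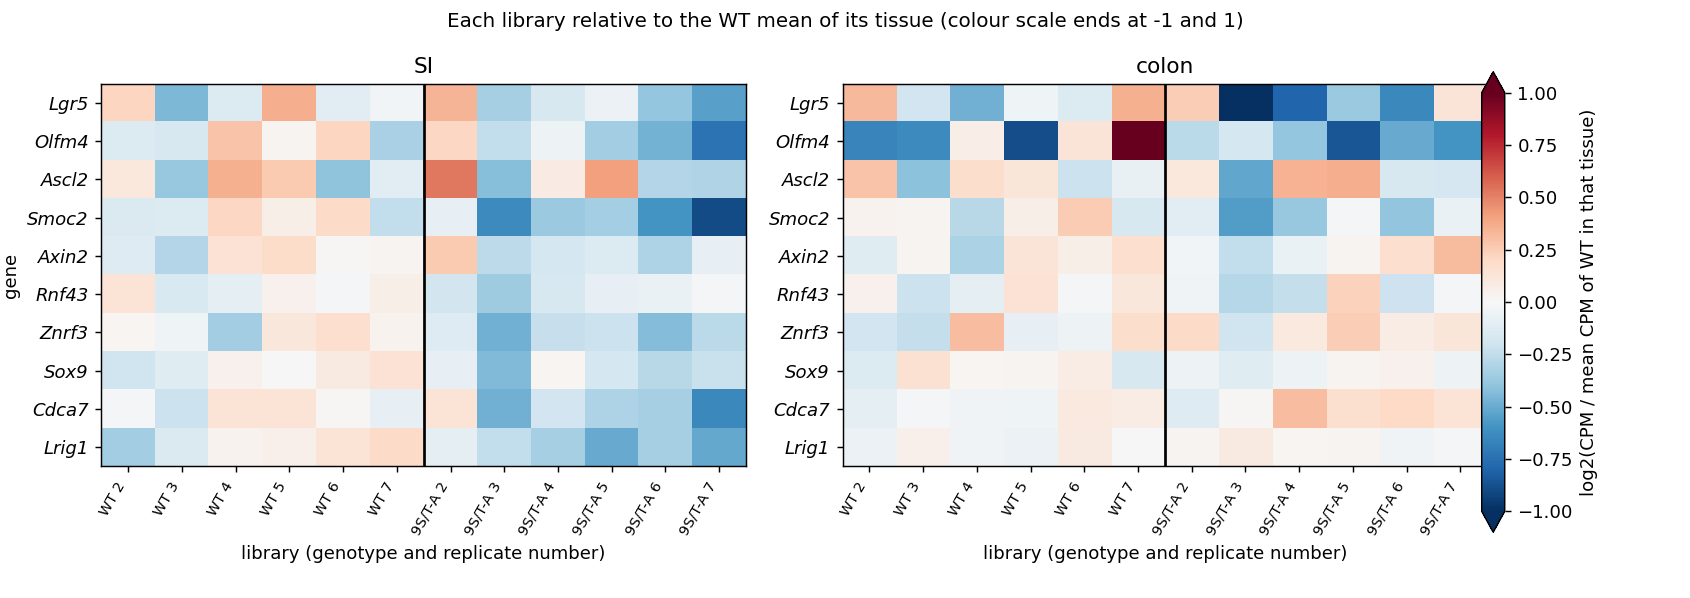
Log2 ratio of each library's CPM to the mean of WT in its tissue, for the 10 genes (rows) in the 24 libraries (columns, the line separating WT from 9S/T-A). Blue is lower and red higher. In SI, 9S/T-A replicates 3, 6 and 7 are below the WT mean for 10 of 10 genes, and replicate 2 for 5.

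Markers of cycling and of other cell types differed between the same groups. The 12 cycling genes were all lower in 9S/T-A SI in the estimates (median -0.36, 0 called), and their summed level was 464 to 647 CPM in WT SI and 343 to 566 CPM in 9S/T-A SI. Of 8 Paneth cell markers, 4 fell and 0 rose (median -0.58), with sums of 60242 to 101855 CPM in WT and 48684 to 76243 CPM in 9S/T-A. Of 7 tuft cell markers tested, 2 fell (sums of 57.4 to 113 and 23.1 to 93.7 CPM). Of 10 goblet markers 0 were called, although 10 were higher in the estimates (median 0.27, sums of 316880 to 445433 and 322374 to 511032 CPM). Of 11 enteroendocrine markers 1 rose and 9 were lower in the estimates, and of 12 absorptive markers 0 were called and 10 were higher. Their part in the values of the stem cell genes was not tested.

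Related genes outside the 10 were counted in the same fit. Among 15 other crypt base columnar genes, 3 fell in 9S/T-A SI and 0 rose. These were Mex3a, which encodes an RNA-binding protein (-0.72, SE 0.169, adjusted p = 0.0426), Sox4, a transcription factor (-0.56, SE 0.127, adjusted p = 0.036), and Prom1, a membrane glycoprotein (-0.36, SE 0.082, adjusted p = 0.0361). Among 30 tested genes of the wider Wnt pathway and its targets, 1 fell, the LGR receptor gene Lgr4 (-0.33, SE 0.0745, adjusted p = 0.0356), and 0 rose. These 4 calls were near the threshold, and they were lost on leaving out any of 9 of the 12 libraries for Mex3a (adjusted p up to 0.102) and Lgr4 (0.0868), and any of 7 for Sox4 (0.0906) and Prom1 (0.0951). The medians were -0.09 for the 15 genes and -0.0033 for the 30.

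In colon, 0 of the 10 genes were called between genotypes, where 0.318% of 16997 genes tested were called. DESeq2 also called 0 of the 10, and 1.2% of all genes it tested. In the edgeR fit, unadjusted p was under 0.05 for 0 of the 10, and for 1497 of all genes tested. The estimates were split, 5 higher and 5 lower, with a median of 0.01. Smoc2 was again lower in 6 of 6 libraries of 9S/T-A (-0.22, SE 0.107, adjusted p = 0.588), with means of 32.2 ± 4.1 CPM in WT and 27.2 ± 4.04 in 9S/T-A. Lgr5 was at -0.34 with a 95% interval of -0.87 to 0.18 (adjusted p = 0.83), and its WT and 9S/T-A libraries overlapped. Olfm4 was at -0.44 (adjusted p = 0.82), a value that became -0.08 without WT colon replicate 7, whose 1.69 CPM lay apart from the 0.904 CPM of the next library. Cdca7, at 0.14, and Lrig1, at 0.04, had narrow intervals of -0.03 to 0.31 and -0.07 to 0.15. Of the related genes, 0 of 13 other crypt base columnar genes and 0 of 29 Wnt pathway genes were called by edgeR, with unadjusted p under 0.05 for 2 and 3. DESeq2 called 0 and 0. The 12 cycling genes were all higher in 9S/T-A colon in the estimates (median 0.39, 0 called).

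**Figure D3:**
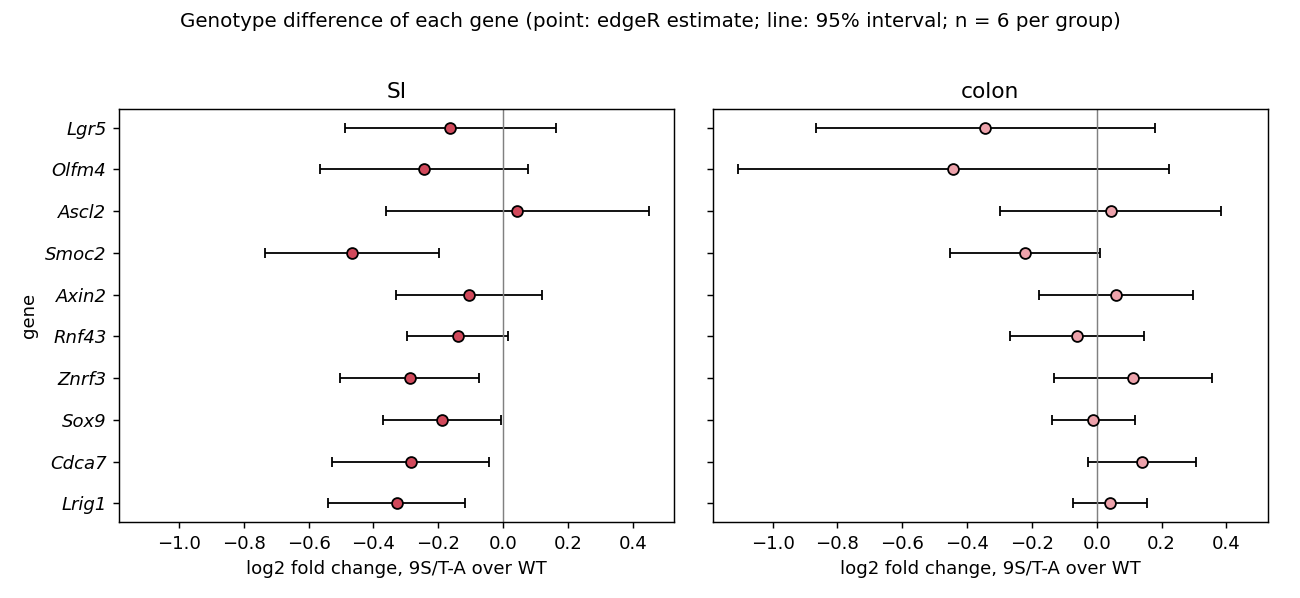
Log2 fold change of 9S/T-A over WT (horizontal axes) for the 10 genes, in SI and in colon. Points are edgeR estimates and lines 95% intervals, n = 6 per group. In SI 9 of 10 estimates are below 0, from Smoc2 at -0.47 to Axin2 at -0.11, and in colon 5 of 10 are.

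The difference between the genotype effects of the tissues was tested over all 24 libraries, and 0 of 10 genes were called by edgeR (0.412% of 17953 genes tested) and 0 by DESeq2. Estimates are the colon effect minus the SI effect. Unadjusted p was under 0.05 for 1740 of all genes tested, and among the 10 for Cdca7 (0.41, SE 0.139, adjusted p = 0.25), Lrig1 (0.35, SE 0.114, adjusted p = 0.217) and Znrf3 (0.38, SE 0.147, adjusted p = 0.34). Cdca7 averaged 49.3 CPM in WT and 40.6 in 9S/T-A in SI, and 28.8 and 31.3 in colon. Lrig1 was at 71.6 and 57.0 CPM in SI, and at 135 and 137 in colon. Leaving out WT SI replicate 2 brought Lrig1 past the threshold (0.42, adjusted p = 0.0403, with 0.612% of all genes called), and leaving out 9S/T-A SI replicate 2 did so for Cdca7 (0.51, adjusted p = 0.0434, with 0.616%). Of 24 single libraries left out in turn, these 2 were the only ones that changed the count of 0. For Lgr5 the estimate was -0.20 with a 95% interval of -0.81 to 0.41.

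Tissue was compared within each genotype. In WT, 8 of the 10 genes were called between colon and SI, where 63.6% of 16979 genes tested were called (33.1% higher and 30.4% lower in colon). Relative to the typical gene, Lrig1 (0.88, SE 0.0864, adjusted p = 3.06e-07) and Sox9 (0.49, SE 0.0754, adjusted p = 3.51e-05) were higher in colon. Lower were Olfm4 (-9.92, SE 0.323), Smoc2 (-1.57, SE 0.101), Lgr5 (-1.0, SE 0.154), Cdca7 (-0.81, SE 0.0699), Rnf43 (-0.56, SE 0.0733) and Axin2 (-0.38, SE 0.0964), with adjusted p from 9.81e-13 for Olfm4 to 0.00271 for Axin2. Olfm4 was thus 966-fold lower and Lgr5 2.0-fold lower. Ascl2 (-0.36, adjusted p = 0.0501) and Znrf3 (-0.25, adjusted p = 0.0652) were not called. Both changed direction with the scaling, as given below. The median of the 10 was -0.47, beside 0.03 over all genes tested.

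In 9S/T-A, 7 of the 10 genes were called (60.9% of 16938 genes tested, 32.9% higher and 28.0% lower), each with the direction it had in WT. Lrig1 was 1.24 higher in colon on the log2 scale and Sox9 0.65 higher. Olfm4 was at -10.12, Smoc2 at -1.35, Lgr5 at -1.20, Rnf43 at -0.49 and Cdca7 at -0.40. Axin2 was at -0.23 (adjusted p = 0.0805), Ascl2 at -0.38 (0.103) and Znrf3 at 0.13 (0.266). Lgr5, Olfm4, Smoc2, Sox9 and Lrig1 had no overlap between tissues in 9S/T-A, where the same held for 41.1% of all genes tested. In WT these genes and also Rnf43 and Cdca7 had no overlap, where the same held for 43.5% of all genes tested. The share of all genes without overlap in both genotypes was not computed.

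The scale decides the direction of the milder tissue differences. With plain library totals in place of TMM factors, the median of all genes was 0.74 higher in colon in WT and 0.85 higher in 9S/T-A. Of the 10 genes, 4 were then called higher and 2 lower in WT (72.1% and 11.2% of all genes tested), and 6 higher and 2 lower in 9S/T-A (74.1% and 9.76%). In WT, Axin2 and Znrf3 turned to 0.33 and 0.46 and were called higher (adjusted p = 0.0275 and 0.0038), Ascl2 and Rnf43 turned to 0.35 and 0.16 and were not called, Lgr5 shrank to -0.28 and Cdca7 to -0.10, neither called, while Smoc2 (-0.86) and Olfm4 (-9.19) remained called lower. In 9S/T-A, Axin2, Rnf43 and Cdca7 turned to 0.57, 0.32 and 0.40 and were called higher (adjusted p = 0.00257, 0.0181 and 0.0106), as was Znrf3 at 0.94 (4.71e-06), while Ascl2 at 0.42 was not called. Taken relative to the shift of the median gene, the plain-total values in WT were -1.02 for Lgr5, -0.58 for Rnf43, -0.41 for Axin2 and -0.39 for Ascl2. As a share of all reads, therefore, only Olfm4 and Smoc2 were called lower in colon in both genotypes, and Sox9 and Lrig1 were higher under both scalings. Cell type markers also differed between the tissues. Markers of Paneth cells, a small-intestinal cell type, summed to 48684 to 101855 CPM in SI and 193 to 1501 CPM in colon. By mean, the largest part of the colon sum was Ang4 (315 ± 292 CPM in WT and 625 ± 433 in 9S/T-A), while Lyz1 averaged 27.4 and 42.8 CPM. The part of these markers in the tissue differences was not tested.

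**Figure D4:**
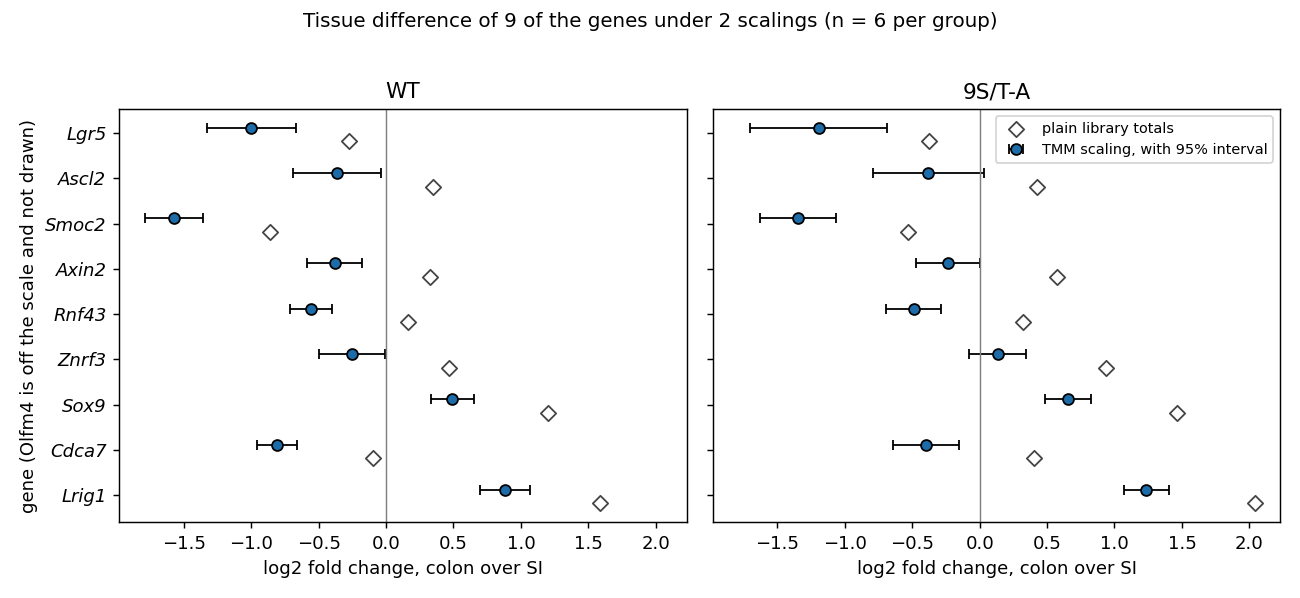
Log2 fold change of colon over SI (horizontal axes) for 9 of the 10 genes in WT and in 9S/T-A, n = 6 per group. Circles with 95% intervals use TMM scaling and open diamonds plain library totals. Olfm4, at -9.92 and -10.12, is outside the range drawn. Smoc2 and Lgr5 are below 0 and Sox9 and Lrig1 above 0 under both, while Axin2, Rnf43 and Ascl2 change side in both genotypes, Znrf3 in WT and Cdca7 in 9S/T-A.

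The related genes also split by tissue. Of 15 other crypt base columnar genes, 6 were higher and 8 lower in colon in WT, and 5 higher and 7 lower in 9S/T-A, shares of 93.3% and 80.0% beside 63.6% and 60.9% of all genes tested. Higher were Aqp4, a water channel (1.59 in WT and 1.93 in 9S/T-A), Kcne3, a potassium channel subunit (1.40 and 1.61), and Slc12a2, a sodium, potassium and chloride cotransporter (1.11 and 1.0). Msi1, an RNA-binding protein, was lower (-2.76 and -2.38). Slc14a1, a urea transporter, and Gkn3, a gastrokine, resembled Olfm4: they averaged 5.56 and 8.46 CPM in WT SI and at most 0.041 and 0.0489 CPM in any colon library. Directions in this list and in the Wnt pathway genes below are for TMM scaling. With plain library totals, Prom1 turned from -0.44 to 0.27 in WT and from -0.37 to 0.435 in 9S/T-A. Sox4 shrank from -0.81 to -0.10 in WT and turned from -0.45 to 0.357 in 9S/T-A. Mex3a shrank from -0.76 to -0.05 in WT. Plain-total values of the unnamed genes in these counts are not given here. Lgr4, of the Wnt pathway list, turned from -0.55 to 0.158 in WT and from -0.39 to 0.4 in 9S/T-A.

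Of 30 tested Wnt pathway genes, 7 were higher and 14 lower in colon in WT, and 8 higher and 15 lower in 9S/T-A. These are 70.0% and 76.7% of the list, not far from the shares of all genes. Tcf7l1, a TCF-family factor, averaged 0.696 ± 0.22 CPM in WT SI and 45.9 ± 5.35 in WT colon (log2 fold change 6.02 in WT and 6.63 in 9S/T-A). Cd44, an adhesion receptor, was higher (1.38 and 1.43), as were the cytoplasmic transducer Dvl2 (0.71 and 0.67) and the cyclin gene Ccnd1 (0.51 and 1.11). The pathway inhibitors Nkd1 (-3.45 and -3.54) and Apcdd1 (-2.84 and -2.86) were lower. Dkk3, of the Dickkopf family, averaged 2.76 CPM in WT SI and at most 0.164 CPM in any colon library.

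Deviations of the 10 genes were then compared within each tissue. After subtracting group means, Pearson's r of log2(CPM + 1) between 2 of the genes had a median of 0.48 over the 45 pairs in the 12 SI libraries (Spearman 0.43), and of 0.10 in the 12 colon libraries (Spearman 0.14). The closest pair in SI was Olfm4 and Smoc2 (r = 0.93), followed by Smoc2 and Cdca7 (0.88), and in colon these pairs were at -0.38 and -0.03. For Smoc2 and Cdca7 the colon value was 0.23 without the libraries numbered 2, and 0.14 by Spearman's rho. Without the libraries numbered 2, the medians were 0.37 in SI and 0.12 in colon. These points share libraries and scaling factors, and the difference between the tissues was not tested.

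The protein-coding genes whose deviations most resembled those of Lgr5 over the 24 libraries were Ubac1 (r = 0.85, rho = 0.81), Fn3k (0.84, 0.87), Igf2bp2 (0.81, 0.72), Adhfe1 (0.78, 0.74) and Hmga2 (0.78, 0.68). They were the top 5 of all genes with a mean of at least 1 CPM, so high values are built in. Without the 2 libraries in which Lgr5 deviated most, 9S/T-A colon replicates 2 and 3, r stayed between 0.69 and 0.85. Within tissues, r of these 5 genes was 0.47 (Igf2bp2) to 0.81 (Ubac1) in SI and 0.86 (Hmga2) to 0.93 (Igf2bp2) in colon. Among the 10 genes, Axin2 (0.61) and Smoc2 (0.58) were closest to Lgr5 over the 24 libraries, and Sox9 (0.03) and Lrig1 (0.06) farthest. By tissue, Cdca7 (0.81) and Ascl2 (0.77) were closest in SI, and Smoc2 (0.62) and Rnf43 (0.61) in colon. Sox9 was at 0.28 in SI and -0.22 in colon, and Lrig1 at 0.25 and -0.33. Between Cdca7 and Lgr5, r was 0.81 in SI and -0.235 in colon, and without the libraries numbered 2 it was 0.73 and 0.32.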

How the data were processed

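RNA of sorted cells was sequenced as stranded, single-end libraries. The authors aligned reads with TopHat2 2.1.1 to GRCm38.p3 and deposited the counts that featureCounts (Subread 1.5.2) gave each Ensembl gene, not normalized. Per the file headers, exon reads were counted by strand at their primary alignment, so antisense partners of Axin2 and Lrig1 were kept apart. Symbols came from GENCODE M21 (44671 of 45513 genes matched). Each comparison was fitted on all genes with edgeR 4.0.16 in R 4.3.3 (filterByExpr, TMM, quasi-likelihood test, two-sided, adjusted p under 0.05), using its 12 libraries, or all 24 for the difference between tissues. Standard errors came from the F statistic. Levels are TMM-scaled CPM over 24 libraries. On simulated 2-fold changes in 200 genes, with libraries drawn independently, 76.5% were recovered in SI and 76% in colon. The 10 genes differed between genotypes by at most 1.38-fold in SI (Smoc2) and 1.36-fold in colon (Olfm4). Recovery of changes that small was not simulated. Named genes were the 10 genes, called genes of the related lists in genotype comparisons (at most 6), their 3 largest rises and falls between tissues, and the 5 genes most like Lgr5. The 10 genes and the lists were chosen with earlier results of these data known. Alternatives were DESeq2 1.42.0, other size factors and filters, sex, the replicate number, an adjusted p of 0.1, and leaving out libraries. Promoter windows are from RefSeq (GRCm38.p6). Total counts were 36.0 to 65.8 (in units of 1e6).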

Additional observations from a re-analysis of the deposited data

Results flagged for a closer look

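Of 112 groups of 6 libraries tested, over the 28 genes with levels named, 8 held a library far from the others (Dixon's ratio above its 95% limit), where chance flags about 1 in 20. For the crypt stem cell genes these were Olfm4 in WT colon replicate 7, at 1.69 CPM, and Axin2 in 9S/T-A SI replicate 2, at 43.5 CPM. For related genes they were Slc12a2 in 9S/T-A colon replicate 2 (818 CPM, highest), Tcf7l1 in 9S/T-A colon replicate 2 (23.8 CPM, lowest), Dkk3 in WT colon replicate 6 (0.164 CPM), Gkn3 in 9S/T-A colon replicate 3 (0.0489 CPM), and Slc14a1 in WT colon replicate 2 (0.03 CPM) and 9S/T-A colon replicate 7 (0.041 CPM). The last 4 rest on a few counts.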

How the results depend on the processing

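The count of crypt stem cell genes called for genotype in SI was 0 and became 1 with DESeq2, with the replicate block and at an adjusted p of 0.1 (Smoc2 each time), 2 with all 24 libraries in 1 fit, 0 to 3 on leaving out single libraries, 3 without all libraries numbered 2 and 5 when a replicate block was added to that. Each of these calls was lower in 9S/T-A. Of all genes tested, 1.94% were called in the main fit, 4.17% with DESeq2 and 2.94% with the replicate block. Without all libraries numbered 2 the share was 4.78%, and with the block added to that it was 15.2% of 16297 genes. Leaving out all libraries of 1 number was chosen after seeing the data. In colon it was 0 throughout, and for the difference between tissues 0 or 1 without single libraries. Counts over all genes moved too: 315 in SI became 780 (DESeq2), 477 (replicate block), 520 (all 24 libraries), 561 (adjusted p of 0.1), 188 to 550 (single libraries left out), 779 (without those numbered 2) and 2476 (the latter with replicate block). In colon 54 became 247 (DESeq2), 90 (no filter), 89 (sex), 385 (replicate block), 103 (all 24), 109 (adjusted p of 0.1), 30 to 72 (single libraries) and 30 (without number 2). For the difference between tissues 74 became 258 (DESeq2), 342 (replicate block), 136 (adjusted p of 0.1), 50 to 112 (single libraries) and 43 (without number 7). The cause was not tested.

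The replicate numbers were not taken as pairs in the main fits. Deviations of same-numbered libraries correlated above 0.1 for 3 of 6 numbers between the SI genotypes and 5 of 6 in the other 3 comparisons. The 2 libraries of a number were each other's best match for 1 of 6 numbers for genotype in SI and 2 for genotype in colon. Between tissues this held for 3 of 6 in WT and 4 of 6 in 9S/T-A. With the replicate block, Smoc2 in SI had adjusted p = 0.0352, where 2.94% of all genes tested were called. Between tissues 9 of the 10 genes were called with the block in each genotype. Of all genes tested, 69% were called in WT and 68.7% in 9S/T-A. Ascl2 was gained in WT (0.00525), and Ascl2 (0.00904) and Axin2 (0.0397) in 9S/T-A, all lower in colon with TMM scaling.

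Values close to 0 changed sign. Ascl2 in SI was -0.0739 with plain totals, -0.0535 without number 2, -0.0498 with the block added, and -0.0747 to 0.1295 without single libraries. In colon, single libraries moved Ascl2 from -0.0316 to 0.1342, Sox9 from -0.0385 to 0.0179 and Axin2 from -0.0157 to 0.1155. For the difference between tissues, Ascl2 was 0.0793 with plain totals, 0.0041 with upper-quartile factors, 0.0013 without a filter, 0.1266 without number 2, and -0.10 to 0.10 without single libraries, Rnf43 -0.0085 to 0.1028, and Olfm4 -0.34 to 0.14, or 0.16 without number 7. With plain totals, tissue in WT gave 0.35 for Ascl2, 0.33 for Axin2, 0.16 for Rnf43 and 0.46 for Znrf3, and in 9S/T-A 0.42 for Ascl2, 0.57 for Axin2, 0.32 for Rnf43 and 0.40 for Cdca7. On that scale 6 of the 10 genes had a higher mean in WT colon than in WT SI, against 2 with TMM. Over the 10 genes and all settings in SI, 226 repeats kept direction and call, 17 gained a call and 7 changed sign. In colon 231 kept both and 9 changed sign.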
